A study of Homo sapiens with 6 samples.

Results

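The genes described here are 9 long noncoding RNAs with established names, MALAT1, NEAT1, NORAD, TUG1, OIP5-AS1, PVT1, MIR22HG, ELFN1-AS1 and LINC00659, out of 58051 genes in the deposited expression table. They were found by symbol, and they were chosen by name with the measured difference between mimic and scramble cells in view, so their own values in that comparison are a description and carry no p-value. RNA sequencing was run on 3 libraries from cells given mimics of piR-36249 and on 3 libraries from cells that received the scramble control. Small RNAs of the piRNA class guide PIWI proteins, and they are best known from the germ line. The cells are labelled NTera-2 (NT2), an established embryonal carcinoma line from a testicular tumour. All 6 libraries share that line. Sample titles and treatment entries name mimics, but a knockdown is named under genotype and in the series design, and the groups below follow the titles. The labels do not say whether libraries of a group came from separate cultures, so the spread between them may be technical.

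Long noncoding RNAs are transcripts that are not translated into a known protein, and they act as RNA or through the act of being transcribed. MALAT1 is retained in nuclear speckles, where splicing factors collect, and NEAT1 is the RNA scaffold of paraspeckles. NORAD is mainly cytoplasmic and holds many binding sites for the Pumilio proteins, which repress the mRNAs they bind. TUG1 is transcribed divergently from the gene beside it, and OIP5-AS1 carries a site that, in work on its mouse counterpart Cyrano, leads to decay of the microRNA miR-7. PVT1 lies beside the MYC oncogene, and MIR22HG is the host transcript of miR-22. ELFN1-AS1 and LINC00659 were described mostly in tumours of the gut, and no molecular role is given for them here.

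Several kinds of sequence set these transcripts apart from one another, and all were read from the GENCODE 29 transcripts on GRCh38, with microRNAs from RefSeq. The first is the Pumilio motif, TGTANATA, searched on the transcript strand only. The longest annotated NORAD transcript, 5339 bases in 1 exon, held 15 of them, or 2.81 per kb. Of 12866 tested genes with a transcript sequence, 4 had at least as many, NORAD included, and the highest number was 17 in LNPEP. At least 1 motif was found in 29.6% of these genes. NEAT1 held 6 in a transcript of 22743 bases, TUG1 held 2, OIP5-AS1 held 1, and these letters were not found in the other 5 transcripts. Windows of 30 bases around 3 of the NORAD motifs are shown because they hold 3 different letters at the open position, with the motif in capitals; all lie on the minus strand, at chr20:36050182-36050211, chr20:36049702-36049731 and chr20:36049492-36049521.
NORAD Pumilio motif 1: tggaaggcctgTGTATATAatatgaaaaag
NORAD Pumilio motif 3: aaatcacatttTGTAAATAcctttttgtta
NORAD Pumilio motif 5: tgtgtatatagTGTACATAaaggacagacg

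The second kind is the pairing with microRNAs. OIP5-AS1 held 3 copies of the match to the miR-7 seed, GTCTTCC, in 8829 bases (0.34 per kb), and the other 8 transcripts held none. At least 1 was found in 25.1% of the 12866 genes, whose median transcript, at 3181 bases, was shorter. The match at chr15:41300572-41300600 on the plus strand could pair 23 bases with the microRNA in an alignment that allowed gaps, against 17 and 14 for the other two. It is shown with its match in capitals, above the mature miR-7-5p from chr9:83969811-83969834 on the minus strand, whose seed (bases 2 to 8) is in capitals.
OIP5-AS1 miR-7 seed match 2: agaacaacaaaatcaccaatGTCTTCCat
miR-7-5p: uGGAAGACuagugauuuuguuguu
The mature miR-22-3p lies at chr17:1713914-1713935 on the minus strand, inside an exon of MIR22HG, and is shown with its seed in capitals because it is the product the host transcript is known for.
miR-22-3p: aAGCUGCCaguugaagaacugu
The microRNA genes themselves are not analysed here.

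The third kind concerns MALAT1 and NEAT1, whose primary transcripts are known to end in a tRNA-like structure that is cut off as a small RNA. The small RNA at the MALAT1 3′ end is annotated at chr11:65506117-65506173, and that of NEAT1 at chr11:65445541-65445598, directly after the annotated end of NEAT1, both on the plus strand. They are shown because both loci carry such a small RNA, with 41 of 61 alignment columns identical (67.2%).
MALAT1 small RNA: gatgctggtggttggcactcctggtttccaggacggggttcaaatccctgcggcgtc
NEAT1 small RNA: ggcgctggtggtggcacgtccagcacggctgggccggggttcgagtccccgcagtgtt
Both small RNA genes were listed at 0 FPKM in all 6 libraries, and the values of MALAT1 and NEAT1 below are those of the genes of the long transcripts. FPKM is the authors' read number of a gene scaled to its exon length and to the depth of the library. The series title names DHX36, a helicase that unwinds G-quadruplexes, so motifs of 4 runs of at least 3 G with loops of 1 to 7 bases were also counted on the transcript strand. NEAT1 held 4 (0.176 per kb), MALAT1 3 (0.345 per kb) and NORAD 3 (0.562 per kb), and the other 6 transcripts held none. Of the 12866 genes 26.8% held at least 1, with no adjustment for length and a median transcript of 3181 bases. The shortest in NEAT1, at chr11:65445416-65445430 on the plus strand, is shown as the most regular of the 10.
NEAT1 G-quadruplex motif 4: GGGAGGGAGGGAGGG
A match of letters is a description and does not show a bound protein or a folded structure.

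**Figure D1:**
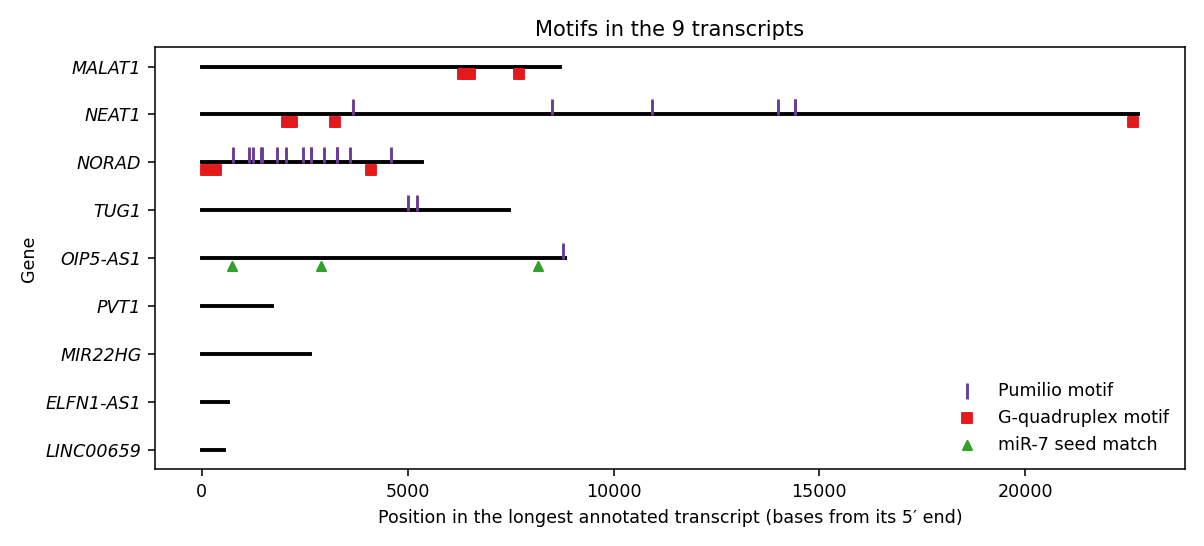
Motifs in the longest annotated transcript of each of the 9 genes. The x axis is the position in bases from the 5′ end, purple ticks above a line are Pumilio motifs, red squares are G-quadruplex motifs and green triangles are miR-7 seed matches; the 15 Pumilio motifs of NORAD crowd its 5339 bases, and the 3 miR-7 matches lie in OIP5-AS1.

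Depth, recovered from the steps of the FPKM values, was 48.0 to 58.6 M reads in mimic libraries and 52.8 to 62.7 M reads in scramble libraries. Of 10 embryonal carcinoma markers none reached a mean of 0.5 FPKM, and 6 of them, NANOG, SOX2, SALL4, TDGF1, L1TD1 and TRIM71, were listed at 0 in every library, so the labelled cell type is not borne out by its defining genes. Of 10 endothelial markers 8 were above 1 FPKM in all libraries, with KDR and VWF below it, and the summed level of all 10 was 702.1 to 764.7 FPKM in mimic and 586.9 to 630.0 FPKM in scramble libraries. Of the 8 tested, 7 passed the test described below as higher, against 18.7% of all tested genes. EGFL7 did not pass without mimic 1, mimic 3 or scramble 2 or with no filter on low values (largest adjusted p with 1 library left out = 0.061), nor TIE1 without mimic 3 (adjusted p = 0.051). The blood and fibroblast lists summed to at most 0.253 and 1.14 FPKM. Mitochondrial genes held 14.5% to 15.3% of the summed FPKM in mimic libraries and 15.4% to 15.7% in scramble libraries. The part of these differences in the results below was not tested, and in bulk RNA fewer cells of a kind and less RNA per cell cannot be told apart.

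All 9 genes were above the filter of a mean of 0.5 FPKM over the 6 libraries. LINC00659 met it only through its scramble libraries, with means of 0.312 FPKM in mimic and 1.79 FPKM in scramble libraries. The test was limma on log2(FPKM + 1) over 12912 genes with Benjamini-Hochberg adjustment, and a gene passed at an adjusted p of 0.05 or less. A log2 difference is mimic minus scramble on that scale, which understates changes of low genes. Of the 9 genes, 3 passed as higher (MALAT1, NEAT1 and OIP5-AS1), 4 passed as lower (NORAD, PVT1, ELFN1-AS1 and LINC00659), and TUG1 and MIR22HG did not pass. Over all tested genes 35.5% passed, 18.7% as higher and 16.8% as lower. Over the 1133 tested long noncoding genes 22.2% passed, 5.38% as higher and 16.9% as lower. The values of the 2 groups did not overlap for 7 of the 9 genes, against 49.2% of all tested genes. The genes were chosen with this comparison known, so nothing is read from these counts. The median log2 difference was -0.01 over the 9 genes, -0.07 over the long noncoding genes and 0.0025 over all tested genes.

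**Figure D2:**
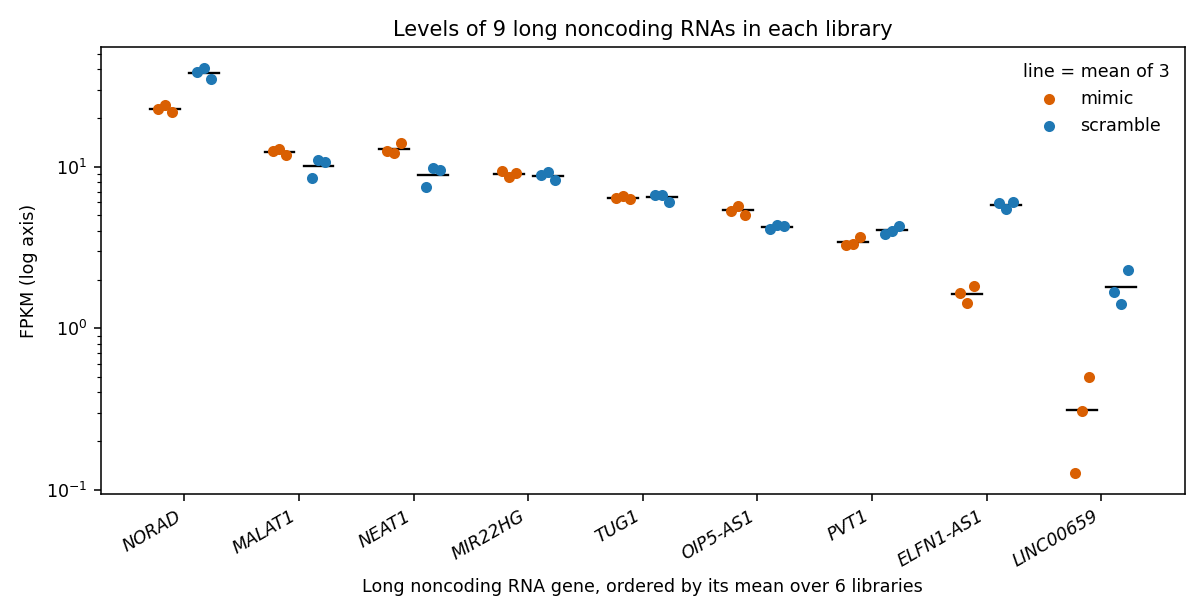
FPKM of the 9 genes in each of the 6 libraries on a log axis. Orange points on the left of each pair are the 3 mimic libraries, blue points on the right the 3 scramble libraries, and black lines are group means; NORAD averaged 22.9 FPKM in mimic and 38.2 FPKM in scramble libraries, and TUG1 and MIR22HG overlap.

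Among the nuclear RNAs, MALAT1 and NEAT1 were both higher in mimic cells, and NEAT1 by more. NEAT1 (ENSG00000245532, chr11:65422774-65445540, plus strand, 1 merged exon) stood at 12.5, 12.1 and 14.0 FPKM in mimic libraries and at 7.49, 9.76 and 9.51 FPKM in scramble libraries. Every mimic value lay above every scramble value, and scramble 1 was the lowest of the 6. The means were 12.9 ± 0.961 FPKM in mimic and 8.92 ± 1.24 FPKM in scramble libraries (SD, n = 3 each), a log2 difference of 0.49 (SE 0.095). NEAT1 has a short and a long isoform that share their 5′ end, and 1 value per gene cannot tell them apart. MALAT1 (ENSG00000251562, chr11:65497688-65506516, plus strand, 1 merged exon) stood at 12.4, 12.9 and 11.7 FPKM in mimic libraries and at 8.55, 10.9 and 10.7 FPKM in scramble libraries. The groups did not overlap, scramble 1 was again the lowest, and the gap between the nearest values of the groups was small. The means were 12.4 ± 0.586 FPKM in mimic and 10.1 ± 1.31 FPKM in scramble libraries (SD, n = 3 each), a log2 difference of 0.28 (SE 0.086). MALAT1 no longer passed when mimic 1, mimic 2, mimic 3 or scramble 1 was left out, and its log2 difference ranged between 0.18 and 0.34 over the alternatives. Other annotated genes with deposited FPKM values share 6.21% of the MALAT1 exon bases and 1.69% of those of NEAT1. These genes, the antisense gene AP000769.2 within MALAT1 included, were listed at 0 FPKM in all libraries. How reads that fall on more than 1 gene were counted is not given in the sources used here, so a 0 at such a gene does not show that it is silent.

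FRMD8 is the nearest coding gene of both the MALAT1 and the NEAT1 locus on the side of lower coordinates. The nearest coding gene on the other side is closer to MALAT1 than FRMD8 is, and is not reported here. FRMD8 lies 9248 bases from NEAT1 and 84162 bases from MALAT1, with NEAT1 in between. It was at 43.5 ± 1.5 FPKM in mimic and 36.5 ± 1.27 FPKM in scramble libraries (SD, n = 3 each), and rose by 0.25 (SE 0.043, limma adjusted p = 0.0036). In each library the log2 level of NEAT1 was also set against that of FRMD8, and this difference was higher in mimic than in scramble libraries by 0.24, with no overlap between groups, and by 0.11 without scramble 1. For MALAT1 against FRMD8 the corresponding value was 0.03, with overlapping groups; it turned to -0.03 without mimic 2 and to -0.10 without scramble 1.

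Genes of the proteins that gather in the same nuclear bodies were lower in mimic cells where they passed. The lists used here and below were chosen with earlier results of these data known, so their counts are a description. Of 19 tested speckle and SR splicing genes, 11 fell and 8 did not pass, where 16.8% of all tested genes passed as lower, with a median log2 difference of -0.20 against 0.0025 over all genes. U2AF2, the large subunit of the U2 auxiliary factor, was at 73.7 ± 1.55 FPKM in mimic and 111.2 ± 1.83 FPKM in scramble libraries (-0.59), SRRM2, a speckle scaffold protein, fell by 0.38, and SRSF1, an SR splicing factor, fell by 0.37 on the log2 scale. U2AF1 has a near-identical copy that can take its reads, so its low value is uncertain. Of 16 paraspeckle genes, 13 fell and 3 did not pass, against the same 16.8% of all tested genes, again with a median of -0.20. PSPC1, a paraspeckle core protein, was at 9.81 ± 0.520 FPKM in mimic and 14.7 ± 0.213 FPKM in scramble libraries (-0.54), RBM14 fell by 0.53 and DAZAP1, an RNA-binding protein, by 0.37. SFPQ and NONO, the core pair of NEAT1-binding proteins, were at 52.4 and 81.1 FPKM in mimic libraries and at 62.6 and 89.7 FPKM in scramble libraries. Their log2 differences were -0.25 and -0.14. NONO did not pass without mimic 1, scramble 1 or scramble 2 or on the TPM scale. The paraspeckle count was 8 without mimic 1, 7 without mimic 3 and 8 without scramble 2.

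NORAD was the most abundant of the 9 genes in both groups and fell in mimic cells. The gene (ENSG00000260032, chr20:36045622-36050960, minus strand, 1 exon) stood at 22.6, 24.1 and 21.9 FPKM in mimic libraries and at 38.6, 41.0 and 35 FPKM in scramble libraries. The highest mimic value lay well below the lowest scramble value. The means were 22.9 ± 1.12 FPKM in mimic and 38.2 ± 3.03 FPKM in scramble libraries (SD, n = 3 each), a ratio of 0.599 and a log2 difference of -0.71 (SE 0.063). These values rest on 5614 to 7072 reads in mimic and 9997 to 12928 reads in scramble libraries, and no other annotated exon overlaps the gene. Its nearest coding gene with enough reads, EPB41L1, a membrane skeleton protein gene 40543 bases away on the opposite strand, went the other way. EPB41L1 was at 1.51 ± 0.0265 FPKM in mimic and 1.03 ± 0.01 FPKM in scramble libraries (SD, n = 3 each; log2 difference 0.30, SE 0.055, limma adjusted p = 0.0047). CNBD2, on the other side, was below the filter.

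Of 8 tested genes of proteins known to bind NORAD, 4 fell and 4 did not pass, with a median of -0.18; of all tested genes 16.8% passed as lower. RBMX, an RNA-binding protein, fell by 0.38, ALYREF, an mRNA export factor, by 0.37 and PRPF19, a splicing factor, by 0.33 on the log2 scale. The Pumilio gene PUM2 did not pass. It was at 11.6 ± 0.754 FPKM in mimic and 12.7 ± 0.626 FPKM in scramble libraries (-0.12; SD, n = 3 each).

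TUG1 (ENSG00000253352, chr22:30969245-30979395, plus strand) did not pass. It stood at 6.39, 6.59 and 6.33 FPKM in mimic libraries and at 6.67, 6.71 and 6.06 FPKM in scramble libraries. The groups overlapped, with the lowest value of all in scramble 3. The log2 difference was -0.01 (SE 0.051), and its sign turned under several alternatives. MORC2, a chromatin ATPase gene that starts 946 bases away on the opposite strand, was at 6.11 ± 0.442 FPKM in mimic and 7.14 ± 0.1 FPKM in scramble libraries (SD, n = 3 each; -0.20, SE 0.055, limma adjusted p = 0.027). The fall of MORC2 did not pass without mimic 1, mimic 3, scramble 1 or scramble 2, with no filter on low values or on the TPM scale, and ranged between -0.23 and -0.15. SMTN, a smooth muscle cytoskeletal gene on the other side, fell by 0.57 (SE 0.038, adjusted p = 4.9e-05). The level of TUG1 set against its neighbour was higher in mimic than in scramble libraries by 0.19 for MORC2 and 0.56 for SMTN on the log2 scale, with no overlap. Of 7 genes of the Polycomb complex PRC2, to which TUG1 was reported to bind, 2 fell, against 16.8% of all tested genes. EED fell by 0.43 and the histone-binding subunit RBBP4 by 0.21, and 5 did not pass, EZH2, the methyltransferase, among them. RBBP4 did not pass without scramble 1 (adjusted p = 0.052).

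OIP5-AS1 was higher in mimic cells. The gene (ENSG00000247556, chr15:41283990-41309737, plus strand, 10 merged exons) stood at 5.34, 5.74 and 5.02 FPKM in mimic libraries and at 4.10, 4.33 and 4.30 FPKM in scramble libraries. The groups did not overlap. The means were 5.37 ± 0.361 FPKM in mimic and 4.24 ± 0.126 FPKM in scramble libraries (SD, n = 3 each), a log2 difference of 0.28 (SE 0.056). Its last 470 exon bases, 3.71% of its exons, overlap the 3′ end of OIP5 on the opposite strand, a gene for a centromere protein. The use of strand in counting is not given in the sources used here, so reads from those bases cannot be assigned to one gene. OIP5 was at 11.2 ± 0.802 FPKM in mimic and 11.6 ± 0.229 FPKM in scramble libraries and did not pass (-0.04, SE 0.054, limma adjusted p = 0.57). The FPKM ratio of OIP5-AS1 to OIP5 was 0.480 ± 0.0442 in mimic and 0.367 ± 0.0172 in scramble libraries (SD, n = 3 each), with no overlap.

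The genes on either side of the OIP5-AS1 locus had differences of opposite sign. CHP1, a calcium-binding protein gene 2099 bases upstream on the same strand, rose by 0.19 (SE 0.045, adjusted p = 0.013). NUSAP1, a spindle protein gene, had a log2 difference of -0.13 (SE 0.039, adjusted p = 0.031), which did not pass when mimic 2, mimic 3 or any scramble library was left out, on the TPM scale or on recovered reads (range -0.15 to -0.11). A second overlapping coding gene on the same strand is not analysed here. Genes for HuR, which binds OIP5-AS1, the Argonautes and ZSWIM8, a ligase adaptor that acts in target-directed microRNA decay, made up a list of 6. Of these, ELAVL1 (HuR) and AGO2 each fell by 0.35 on the log2 scale and 4 did not pass. Of all tested genes 16.8% passed as lower. ZSWIM8 was at 6.71 ± 0.275 FPKM in mimic and 6.48 ± 0.401 FPKM in scramble libraries. Of 12 listed miR-7 targets 11 were tested, KLF4 rose by 0.51 and IGF1R, a growth factor receptor, by 0.26, and 9 did not pass, with a median of 0.06. These 2 of 11 are near the 18.7% of all tested genes that passed as higher. IGF1R did not pass without mimic 2, mimic 3, scramble 1 or scramble 3 (largest adjusted p = 0.085).

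PVT1 (ENSG00000249859, chr8:127794533-128101253, plus strand, 21 merged exons) was slightly lower in mimic cells. It stood at 3.28, 3.33 and 3.66 FPKM in mimic libraries and at 3.83, 4.002 and 4.32 FPKM in scramble libraries. The groups did not overlap, but mimic 3 and scramble 1 lay close together. The means were 3.43 ± 0.205 FPKM in mimic and 4.05 ± 0.247 FPKM in scramble libraries (SD, n = 3 each), a log2 difference of -0.19 (SE 0.060). PVT1 did not pass when mimic 1, mimic 2 or any scramble library was left out, and its value ranged between -0.24 and -0.15. MYC, 53098 bases upstream on the same strand, was at 138.6 ± 3.48 FPKM in mimic and 176.7 ± 0.402 FPKM in scramble libraries (SD, n = 3 each; -0.35, SE 0.036, limma adjusted p = 0.00034). GSDMC, a gasdermin gene and the nearest coding gene on the far side, lies 1646942 bases away on the opposite strand. It was at 11.1 ± 0.427 FPKM in mimic and 16.9 ± 1.15 FPKM in scramble libraries (-0.57, limma adjusted p = 0.00028). The FPKM ratio of PVT1 to MYC was 0.0247 ± 0.000923 in mimic and 0.0229 ± 0.00141 in scramble libraries, and the groups overlapped in this ratio. On log2(FPKM + 1) the level of PVT1 set against MYC was higher in mimic libraries by 0.16, with no overlap. Whether the groups overlap thus depends on the measure.

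MIR22HG (ENSG00000186594, chr17:1711493-1717174, minus strand) did not pass. It stood at 9.36, 8.65 and 9.14 FPKM in mimic libraries and at 8.91, 9.23 and 8.23 FPKM in scramble libraries, with overlapping groups. The log2 difference was 0.04 (SE 0.054), and it was -0.00 without scramble 3. WDR81, a gene of endosomal traffic whose span overlaps MIR22HG by 652 bases on the opposite strand with no shared exon base, was at 6.64 ± 0.358 FPKM in mimic and 5.70 ± 0.192 FPKM in scramble libraries (SD, n = 3 each; 0.19, SE 0.052, limma adjusted p = 0.026). WDR81 did not pass without mimic 1, mimic 2, scramble 2 or scramble 3 or with no filter on low values (range 0.17 to 0.23). TLCD2 and SERPINF2, the nearest coding genes that do not overlap, were below the filter. Of 15 listed miR-22 targets 12 were tested, 4 rose and 8 did not pass, with a median of 0.10, where 18.7% of all tested genes passed as higher. TP53INP1, a p53-induced stress gene, was at 4.49 ± 0.267 FPKM in mimic and 2.11 ± 0.118 FPKM in scramble libraries (0.82), ARRB1, a beta-arrestin, at 35.4 ± 0.0971 FPKM in mimic and 23.5 ± 0.819 FPKM in scramble libraries (0.57), and CDK6, a cell cycle kinase, at 4.18 ± 0.444 FPKM in mimic and 2.96 ± 0.201 FPKM in scramble libraries (0.38).

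**Figure D3:**
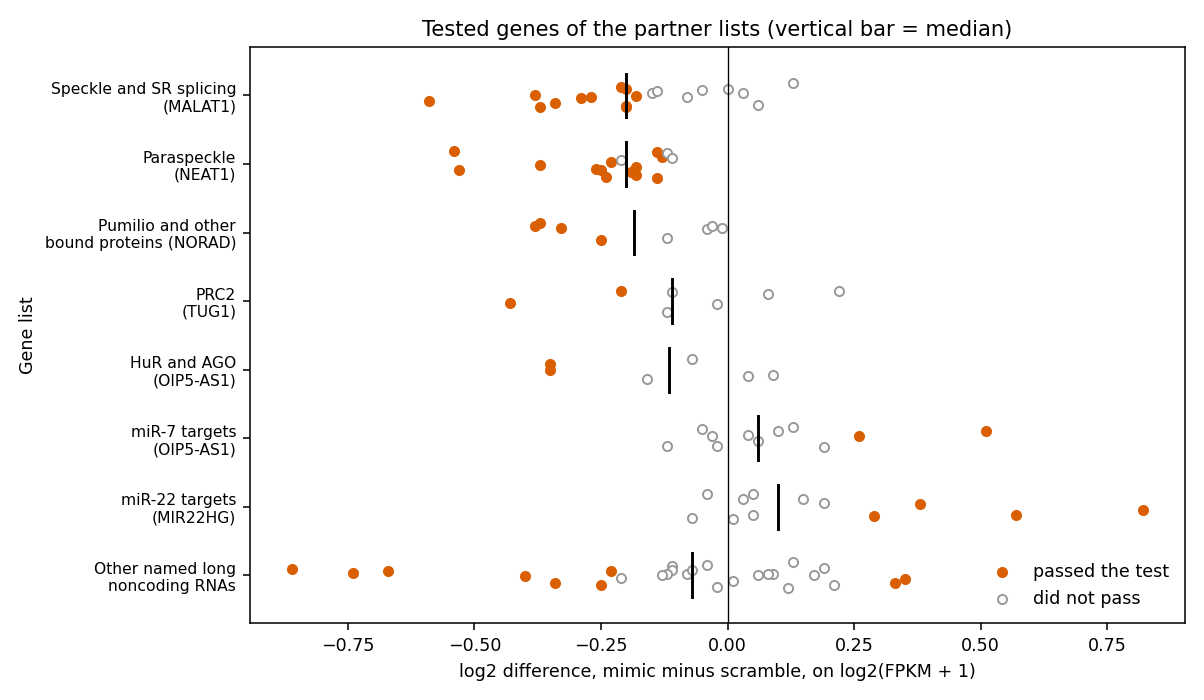
Log2 differences, mimic minus scramble, of the tested genes in the lists of proteins, targets and other long noncoding RNAs tied to the 9 genes. Filled orange points passed the test, open points did not, and black bars are medians. Of the speckle genes 11 of 19 and of the paraspeckle genes 13 of 16 passed as lower, where 16.8% of all tested genes did. The 4 miR-22 targets that passed were higher, where 18.7% of all tested genes passed as higher.

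ELFN1-AS1 fell in mimic cells, while the coding gene it lies in rose. The gene (ENSG00000236081, chr7:1738630-1742291, minus strand, 2 merged exons) stood at 1.66, 1.42 and 1.83 FPKM in mimic libraries and at 5.95, 5.44 and 6.07 FPKM in scramble libraries. The scramble values were all far above the mimic values. The means were 1.64 ± 0.206 FPKM in mimic and 5.82 ± 0.334 FPKM in scramble libraries (SD, n = 3 each), a ratio of 0.281 and a log2 difference of -1.37 (SE 0.072). They rest on 76 to 96 reads in mimic and 284 to 369 reads in scramble libraries. The authors' deposited table, which holds 401 genes, all of them changed by 1 or more on its log2 scale, gives ELFN1-AS1 a log2 fold change of -1.84 (standard error 0.171).

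All 3662 bases of the ELFN1-AS1 span lie inside that of ELFN1, a gene for a synaptic adhesion protein, on the opposite strand, with no shared exon base. ELFN1 stood at 10.8, 10.5 and 10.9 FPKM in mimic libraries and at 8.005, 7.17 and 7.12 FPKM in scramble libraries, with no overlap. Its log2 difference was 0.48 (SE 0.052, limma adjusted p = 0.00046). The FPKM ratio of ELFN1-AS1 to ELFN1 was 0.153 ± 0.0163 in mimic and 0.785 ± 0.0588 in scramble libraries (SD, n = 3 each). Without strand, reads from introns of ELFN1 that fall on exons of ELFN1-AS1 cannot be told apart from reads of the antisense gene. The next coding genes, both on the strand of ELFN1-AS1, had smaller differences of the same sign. PSMG3, a proteasome assembly chaperone, had -0.22 (adjusted p = 0.024) and did not pass without mimic 2, scramble 1 or scramble 3 or with no filter on low values (range -0.26 to -0.16), and MAD1L1, a spindle checkpoint gene, had -0.19 (adjusted p = 0.017) and did not pass without scramble 1 (range -0.22 to -0.15).

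LINC00659 was the least abundant of the 9 genes and fell in mimic cells, with its lowest value in mimic 1. The gene (ENSG00000228705, chr20:62774128-62775412, minus strand, typed as antisense) stood at 0.126, 0.308 and 0.502 FPKM in mimic libraries and at 1.68, 1.40 and 2.28 FPKM in scramble libraries. The groups did not overlap, and the mimic values differed among themselves by more than those of any other of the 9 genes on a log scale. These values rest on only 4, 9 and 13 reads in mimic libraries, against 57, 40 and 66 reads in scramble libraries. The means were 0.312 ± 0.188 FPKM in mimic and 1.79 ± 0.450 FPKM in scramble libraries (SD, n = 3 each), a ratio of 0.174. The log2 difference was -1.09 (SE 0.141) with 1 FPKM added, a smaller fall than the -1.37 of ELFN1-AS1. With 0.1 FPKM added it was -2.28, against -1.77 for ELFN1-AS1, and on recovered reads -2.65, against -1.84. The authors' deposited table gives LINC00659 a log2 fold change of -2.56 (standard error 0.475). Its neighbours, the neurotensin receptor gene NTSR1 and the chromatin gene MRGBP, lie 11356 and 21040 bases away on the opposite strand and do not overlap it. NTSR1 was at 20.8 ± 1.23 FPKM in mimic and 18.0 ± 0.742 FPKM in scramble libraries (SD, n = 3 each; 0.19, SE 0.053, limma adjusted p = 0.025), and did not pass without mimic 3, scramble 2 or scramble 3 or with no filter on low values (range 0.15 to 0.22). MRGBP did not pass (0.02, adjusted p = 0.71).

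**Figure D4:**
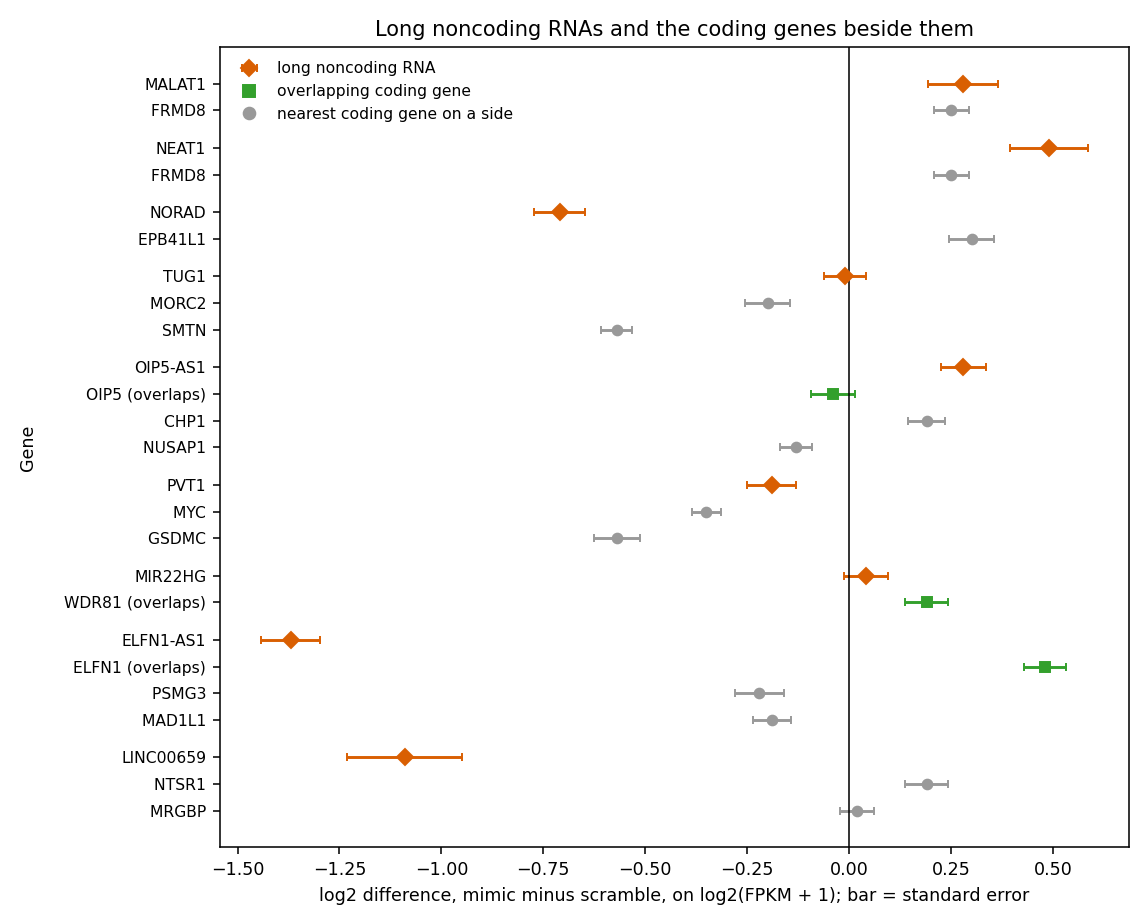
Log2 differences, mimic minus scramble, with standard errors, of the 9 long noncoding RNAs (orange diamonds) and of tested coding genes that overlap them (green squares) or lie nearest on a side (grey circles). ELFN1-AS1 at -1.37 and ELFN1 at 0.48 stand on opposite sides of 0, PVT1 and MYC on the same side.

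Of 21 pairs of a long noncoding RNA and a coding gene, 18 had both genes above the filter. With 3 libraries against 3 an exact permutation test cannot go below p = 0.1, so these pairs are given as values only.

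The order of the 9 genes by level differed between the groups. In mimic libraries it ran NORAD, NEAT1, MALAT1, MIR22HG, TUG1, OIP5-AS1, PVT1, ELFN1-AS1 and LINC00659, and only NEAT1 and MALAT1 had overlapping ranges among neighbours in this order. In scramble libraries it ran NORAD, MALAT1, NEAT1, MIR22HG, TUG1, ELFN1-AS1, OIP5-AS1, PVT1 and LINC00659. There the ranges of MALAT1 and NEAT1, of NEAT1 and MIR22HG, of TUG1 and ELFN1-AS1 and of OIP5-AS1 and PVT1 overlapped. Among the 1133 tested long noncoding genes, ranked by the mean of the 6 libraries, NORAD was in place 11, MALAT1 48, NEAT1 50 and LINC00659 624. The summed level of the 9 genes was 73.7 to 75.2 FPKM in mimic and 85.8 to 92.8 FPKM in scramble libraries.

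The long noncoding genes as a class are given as the background to these values. Long noncoding genes held 1.22% to 1.24% of the summed FPKM in mimic and 1.32% to 1.37% in scramble libraries. Of the 475 tested lincRNAs 35 rose and 97 fell, of the 473 antisense genes 17 rose and 62 fell, and of the 10640 coding genes 2297 rose and 1839 fell. Outside the 9, among those with a symbol and a mean of 1 FPKM or more in at least 1 group, the largest falls were those of SNHG6, a snoRNA host gene, at 8.998 ± 1.44 FPKM in mimic and 24.4 ± 2.68 FPKM in scramble libraries (-1.35), CDC20-DT (-1.0) and AC089983.1 (-0.99). The largest rises were LINC02725, at 13.9 ± 1.15 FPKM in mimic and 7.65 ± 0.860 FPKM in scramble libraries (0.78), AP001189.4 (0.67, at 1.3 FPKM in mimic and 0.463 FPKM in scramble libraries) and TRIM8-DT (0.66). Of 27 tested long noncoding RNAs from a list of other established names, 2 rose, 7 fell and 18 did not pass. Over all tested long noncoding genes 5.38% passed as higher and 16.9% as lower, and over all tested genes 18.7% and 16.8%. LINCMD1 (0.35) and HAGLR (0.33) rose, LINCMD1 with no call on recovered reads and values of 0.33 to 0.83 over the alternatives, and MIR31HG (-0.86), DANCR (-0.74), VPS9D1-AS1 (-0.67) and PINCR (-0.40) had the largest falls. Without scramble 2 the count of falls was 4.

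**Figure D5:**
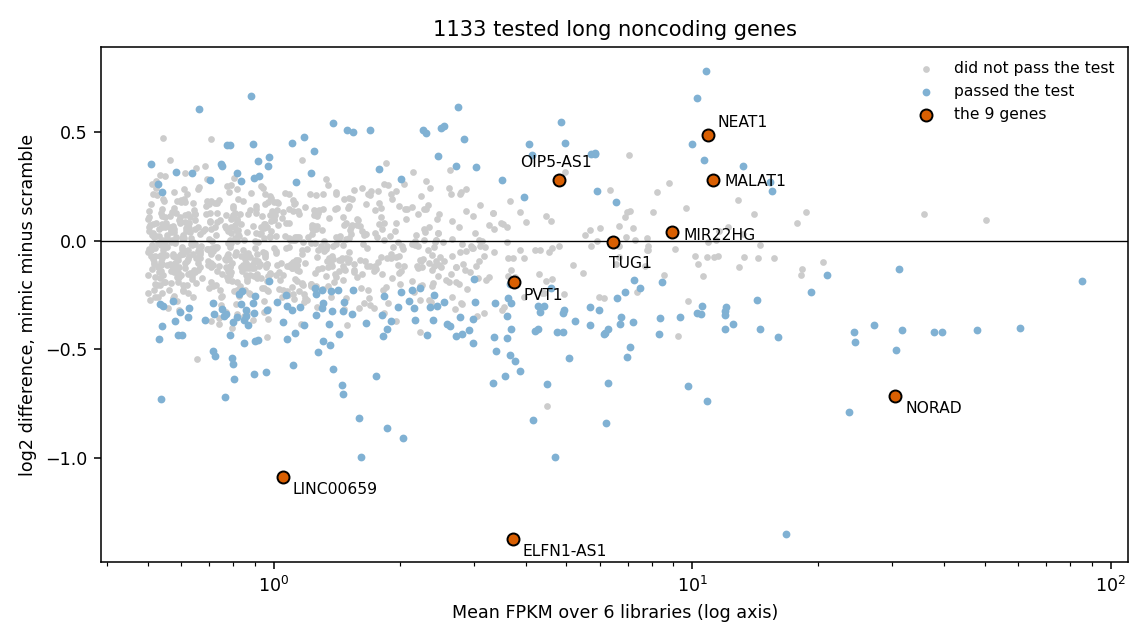
Log2 difference, mimic minus scramble, against the mean FPKM over 6 libraries (log axis) for the 1133 tested long noncoding genes. Blue points passed the test, grey points did not, and orange points are the 9 genes; ELFN1-AS1, LINC00659 and NORAD lie at the lower edge, TUG1 and MIR22HG near 0.

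For each of the 9 genes the tested genes with the most similar pattern were taken as those with the smallest root mean square difference of centred log2(FPKM + 1) values over the 6 libraries. NORAD was closest to ALCAM, a cell adhesion gene (0.025), and to the cyclin gene CCND1 (0.028), where the values of NORAD themselves had a root mean square of 0.365. CCND1 was at 144.6 FPKM in mimic and 234.0 FPKM in scramble libraries. ELFN1-AS1 was closest to SLC25A5, the mitochondrial ADP/ATP carrier (0.037), at 122.6 FPKM in mimic and 318.1 FPKM in scramble libraries, and to the keratin-associated gene KRTAP2-3 (0.081). LINC00659 was closest to the pseudogene PTMAP5 (0.111) and again to KRTAP2-3 (0.127), both of which have near-identical copies and are uncertain. NEAT1 was closest to SDCBP2 (0.062) and DDO (0.078), MALAT1 to ANKRD30BP1 and BAIAP2-DT (0.054 each), and OIP5-AS1 to TFEC (0.023) and ZNF860 (0.026). PVT1 was closest to DMAP1 and ECI2 (0.025 each), TUG1 to NIPAL3 (0.012) and SMURF2 (0.016), and MIR22HG to CREBZF (0.013) and RAP2B (0.018). Likeness over 6 libraries of 2 groups follows mainly the difference between the groups.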

How the data were processed

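Per the submitters' processing notes, DESeq2 1.26.0, featureCounts 2.0.1, HISAT2 2.1.0 and Trimmomatic 0.39 were used, with GRCh38. Which annotation release, strand setting and FPKM formula were used is not given in the sources used here. Deposited FPKM values cover 6 libraries. There is also, per the file headers, a comparison table with a base mean (a signal on the scale of normalized counts), a log2 fold change, a test statistic (score) and p-values. The table held 0 columns of other samples. Gene names, positions and transcripts came from GENCODE 29. FPKM multiplied by exon length gave whole reads for 95.9% to 96.1% of low values (tolerance 0.02 reads); among the 9 genes this held for 7, and not for MALAT1 and TUG1, whose reads are not printed. Groups were compared on log2(FPKM + 1) in limma 3.58.1 under R 4.3.3, using its variance trend, and p-values were adjusted by Benjamini-Hochberg over the 12912 genes averaging 0.5 FPKM or more. The model was also run on simulated data with a fixed dispersion and changes set only in genes of higher level. Changes of low genes such as LINC00659 were thus not covered. The 9 genes, the lists and the tests were chosen with earlier results of these data known. Named genes are the 9, their coding neighbours, the 3 largest called differences of each list (4 rises and 4 falls for other long noncoding RNAs), the 3 largest rises and falls of the class with a mean of 1 FPKM or more in a group, and the 2 most similar genes of each; markers and core members of a complex were added after their values were seen. Alternatives covered the pseudocount, filter, scaling, variance model, a count-based test on recovered reads, the replicate number and each library left out. Some genes that these rules take are not reported here.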

Additional observations from a re-analysis of the deposited data

How the results depend on the processing

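Over the alternatives for the pseudocount, filter, scaling, variance model, recovered reads, replicate number and single libraries, NEAT1 (0.38 to 0.55), NORAD (-0.77 to -0.66), OIP5-AS1 (0.24 to 0.34), ELFN1-AS1 (-1.84 to -1.31) and LINC00659 (-2.65 to -0.96) kept their direction and passed in every one that tested them. Because the 9 genes were chosen with this comparison known, and the alternatives reuse the same libraries, passing them is a description only. LINC00659 averaged below the filter of 0.5 FPKM in mimic libraries and met it through its scramble values alone. MALAT1 also did not pass with no filter and with no variance trend, and PVT1 with no filter and on the TPM scale. With a filter at 5 FPKM, 3 of the 9 genes and 71 long noncoding genes passed, where fewer genes were tested. With 1 library left out, 5 or 6 of the 9, 182 to 217 long noncoding genes and 3374 to 4006 of all genes passed, against 7, 252 and 4584 with all libraries. The sign of TUG1 turned to 0.01 on the TPM scale, 0.00 without mimic 3, 0.01 without scramble 1 and 0.02 without scramble 2, and that of MIR22HG to -0.00 without scramble 3. Leaving out 1 library in turn gave -0.05 to 0.02 for TUG1 and -0.00 to 0.07 for MIR22HG; neither passed under any alternative. MALAT1 against FRMD8 turned to -0.03 without mimic 2 and -0.10 without scramble 1, within -0.10 to 0.10 over single libraries left out. Among the lists, the filter at 5 FPKM left 1 PRC2 fall, 1 rise each of miR-7 targets, miR-22 targets and other long noncoding RNAs, and 3 falls of the last. No filter left 1 miR-7 rise and 4 such falls. For other long noncoding RNAs the rises were 4 on the TPM scale and with the replicate block, and 1 on recovered reads. Of miR-7 targets 1 passed as lower at 5 FPKM and on recovered reads.

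Libraries with the same replicate number had correlations of -0.062, 0.241 and 0.054 between their deviations from the group means. For libraries with different numbers the correlations ran from -0.274 to 0.23. With 3 libraries per group these values cannot settle whether the numbers pair the samples. With the replicate number as a block, 4609 genes, 254 long noncoding genes and 7 of the 9 passed. Depth limits LINC00659 most, with 4 to 13 reads in mimic libraries.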
